A study of Mus musculus with 2 samples.

Results

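Cxcl1, Cxcl2 and Cxcl3 encode secreted CXC chemokines, and Cxcr2 encodes the receptor through which they draw neutrophils out of the blood and into tissue. These 4 genes, found by symbol, are followed here out of 31253 genes counted in single cells of MB49 tumours, which grow from a mouse bladder cancer cell line. Cells were described by class, to show which cells held the chemokine transcripts and which held the receptor, and the 2 libraries were set side by side. One library came from tumours of lethally irradiated female mice given male wild-type marrow (wt), and the other from such mice given male marrow lacking Lcn2 (Lcn2-ko), the gene of a neutrophil granule lipocalin. The study's design text names the role of Lcn2 in neutrophil diversity and function as its question.

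In such chimeras only cells that descend from the marrow carry its genotype, while the tumour line and the radioresistant cells of the host do not. The labels give neither the age of the mice nor whether animals were pooled. The tumours were minced and digested with collagenases, DNase I and Dispase II for 45 minutes at 37 degrees Celsius, and live CD45+ cells were sorted and captured with the BD Rhapsody microwell system. With 1 library per label there was no test of the genotype, no replicate error and no p-value. The intervals given are 95% intervals that cover counting error only. Lcn2 itself had UMIs in both libraries. Its counts by class are not given here, so the genotype label was not checked. The second library is called the Lcn2-ko-labelled library throughout.

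As background, the chemokine genes are primary response genes: interleukin-1, tumour necrosis factor and microbial products switch them on through NF-kB, and their mRNAs are short-lived. CXCR2 is a G protein-coupled receptor of mature neutrophils that is removed from the cell surface after it has bound ligand, and CXCR4 with its ligand CXCL12 opposes it in holding neutrophils in the marrow. In tumours the ligands can come from the cancer cells, from stromal cells, from macrophages and from neutrophils themselves.

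The 3 chemokine genes lie on the plus strand of mouse chromosome 5 in the mm10 build, within 119.8 kb. Cxcl3 (ENSMUSG00000029379) spans 90786103 to 90789600, Cxcl1 (ENSMUSG00000029380) 90891241 to 90893115 and Cxcl2 (ENSMUSG00000058427) 90903871 to 90905938. Cxcl1 ends 10.76 kb before Cxcl2 begins, and Cxcl3 ends 101.6 kb before Cxcl1 begins. Cxcr2 (ENSMUSG00000026180) lies apart from them, on chromosome 1 at 74153989 to 74161246.

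The promoters of the 3 chemokine genes are printed because these genes shared 2 runs of letters in like places although their transcripts were spread differently over the cell classes. Each sequence is the 250 bases before the RefSeq gene start on the plus strand of GRCm38.p6, at chr5:90890995-90891244 for Cxcl1, chr5:90903649-90903898 for Cxcl2 and chr5:90785851-90786100 for Cxcl3. Capitals mark the 2 runs of at least 7 letters that all 3 windows hold, GGGAATTTCCC, which contains a form of the NF-kB binding motif, and ATAAAAGG, a form of the TATA box.
Cxcl1: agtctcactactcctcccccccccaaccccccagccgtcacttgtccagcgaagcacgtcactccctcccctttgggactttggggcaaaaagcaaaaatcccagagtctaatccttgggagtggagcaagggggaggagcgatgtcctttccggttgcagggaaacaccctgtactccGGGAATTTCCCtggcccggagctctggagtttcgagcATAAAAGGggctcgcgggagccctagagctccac
Cxcl2: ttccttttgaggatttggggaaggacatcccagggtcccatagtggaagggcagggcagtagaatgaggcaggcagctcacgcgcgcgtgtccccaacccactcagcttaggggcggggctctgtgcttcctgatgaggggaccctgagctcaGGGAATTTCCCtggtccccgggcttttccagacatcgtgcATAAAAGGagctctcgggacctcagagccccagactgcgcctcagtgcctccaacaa
Cxcl3: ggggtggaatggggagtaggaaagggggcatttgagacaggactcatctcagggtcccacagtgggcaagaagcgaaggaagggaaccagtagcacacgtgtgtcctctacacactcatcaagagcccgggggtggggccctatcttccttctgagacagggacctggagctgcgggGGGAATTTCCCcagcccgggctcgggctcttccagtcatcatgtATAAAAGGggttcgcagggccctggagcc

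Each run occurred 1 time per window, on the plus strand. GGGAATTTCCC began 71, 97 and 73 bases before the start of Cxcl1, Cxcl2 and Cxcl3, and ATAAAAGG began 34, 57 and 29 bases before it. The distance from the first base of one run to that of the other was thus 37, 40 and 44 bases. The distances to the start rest on the RefSeq starts. The Cxcl2 window ends at 90903898, inside the gene by its GENCODE start of 90903871, from which the Cxcl2 distances would be shorter. Searched on both strands, GGGAATTTCCC was found in 14 of 32851 promoter windows of the same length (0.0426%) and ATAAAAGG in 507 (1.54%), and the runs do not overlap. Both occurred in 3 windows, which were those of the 3 chemokine genes, and neither occurred in the Cxcr2 window. The letters were taken from these 3 windows, so that all 3 hold them follows from the choice, and the counts describe the windows and say nothing about binding.

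The 3 transcripts are near relatives, and Cxcl2 and Cxcl3 share 89.8% of their aligned coding bases. Of 273 stretches of 31 bases in the coding part of each, 68 were shared between Cxcl2 and Cxcl3, and none was shared between Cxcl1 and either of them. In the 3′ untranslated parts no such stretch was shared by any pair. How the authors' counting treated reads that fit both Cxcl2 and Cxcl3 is not given in the sources used here.

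The wt library held 7974 barcodes and 42069099 UMIs, and the Lcn2-ko-labelled library held 7788 barcodes and 40959725 UMIs. After filters on genes, mitochondrial share and doublet score, 7398 and 7240 cells were kept, with 4 barcodes occurring in both libraries. A UMI stands for 1 captured mRNA molecule, and levels are given as CPM, the UMIs of a gene scaled to a class total of 1e+06. Levels of different genes were not scaled for transcript length and are not compared with each other. Cells were put into 10 classes by lists of marker genes that hold none of the 4 genes, and 1385 wt cells and 1463 of the other library (18.7% and 20.2%) were left ambiguous because markers of more than 1 class were detected. As a second grouping, both libraries were clustered together into 23 clusters, of which all but 1 were named from the same lists. Of 945 cells gated as neutrophils, 905 lay in the neutrophil cluster and 31 in the monocyte-macrophage clusters. The gate was far narrower for monocyte-macrophages, since it took in 286 cells against 1576 in their clusters, of which 1179 were ambiguous by the gate. Values are therefore given by gate, with the clusters beside them where they differ.

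The labelled CD45+ sort was checked against Ptprc, the gene of CD45. Immune classes held Ptprc at 175 to 1598 CPM over both libraries. A class of 1450 wt cells and 1279 cells of the other library had 0 Ptprc UMIs by definition and at least 3 of 12 markers of tumour or stromal cells, a list of keratin, matrix and cytoskeleton genes in which Sparc was the highest. Clusters of that kind had Ptprc at 15.9 and 20.7 CPM, and a level under 100 CPM was a condition of their naming. These cells stand outside the labelled cell type and are described as Ptprc-negative cells.

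Cxcl2 was the transcript with the most UMIs of all genes in tumour neutrophils, in both libraries. The 579 wt neutrophils held 33124 Cxcl2 UMIs, which was 37135 CPM (36737 to 37538), or 3.71% of all their UMIs. The 366 neutrophils of the Lcn2-ko-labelled library held 18849, which was 37830 CPM (37291 to 38374), or 3.78%. Cxcl2 ranked 1 among 12166 genes with a UMI in wt neutrophils and 1 among 11079 in the other library.

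The Cxcl2 signal came from nearly every neutrophil and was not carried by a few cells. The median wt neutrophil held 47 Cxcl2 UMIs, the quartiles were 19.5 and 84.5, and the highest cell held 242. In the Lcn2-ko-labelled library the median was 41.5, the quartiles were 17.25 and 77.75, and the highest cell held 235. The tenth of cells with the most Cxcl2 held 27.4% and 27.6% of it. With every cell thinned to 800 UMIs, 508 of 517 wt neutrophils (98.3%) and 296 of 302 of the other library (98.0%) had a Cxcl2 UMI.

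T cells, which are not a known source of these chemokines, served as the background of free RNA. The median T cell held 2651 UMIs in wt and 2760.5 in the other library, against 1351 and 1222 for the median neutrophil. Thinned, 10.4% and 10.5% of T cells had a Cxcl2 UMI, at levels of 161 and 163 CPM. Wt neutrophils stood 231-fold above wt T cells (218 to 244). Thinning left out 62 wt neutrophils and 64 of the other library, and 16 and 8 T cells, and without it 96.9% and 98.4% of neutrophils and 29.2% and 31.01% of T cells had a Cxcl2 UMI.

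Cxcl3, whose product also binds CXCR2, was high in the same class. Wt neutrophils held 4903 Cxcl3 UMIs, or 5497 CPM (5344 to 5653), and those of the Lcn2-ko-labelled library held 3080, or 6182 CPM (5965 to 6404). Cxcl3 was less evenly spread than Cxcl2: the median neutrophil held 1 UMI in wt and 2 in the other library, and the highest cell held 75 and 66. Thinned, 54.2% of wt neutrophils (49.8 to 58.5) and 57.9% of the others had a Cxcl3 UMI, against 1.17% and 1.65% of T cells. Unthinned shares were 57.0% and 59.6% in neutrophils and 4.07% and 4.84% in T cells.

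Cxcl1 was scarce in neutrophils. They held 306 Cxcl1 UMIs in wt, or 343 CPM (306 to 384), and 122 in the Lcn2-ko-labelled library, or 245 CPM (203 to 292). The highest single cell held 32 of the wt UMIs, and the tenth of wt cells with the most Cxcl1 held 97.4% of it. Thinned, 40 of 517 wt neutrophils (7.74%) and 21 of 302 others (6.95%) had a Cxcl1 UMI, against 1.83% and 2.81% of T cells, and unthinned shares were 11.4% and 10.9% in neutrophils and 6.98% and 8.99% in T cells.

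**Figure D1:**
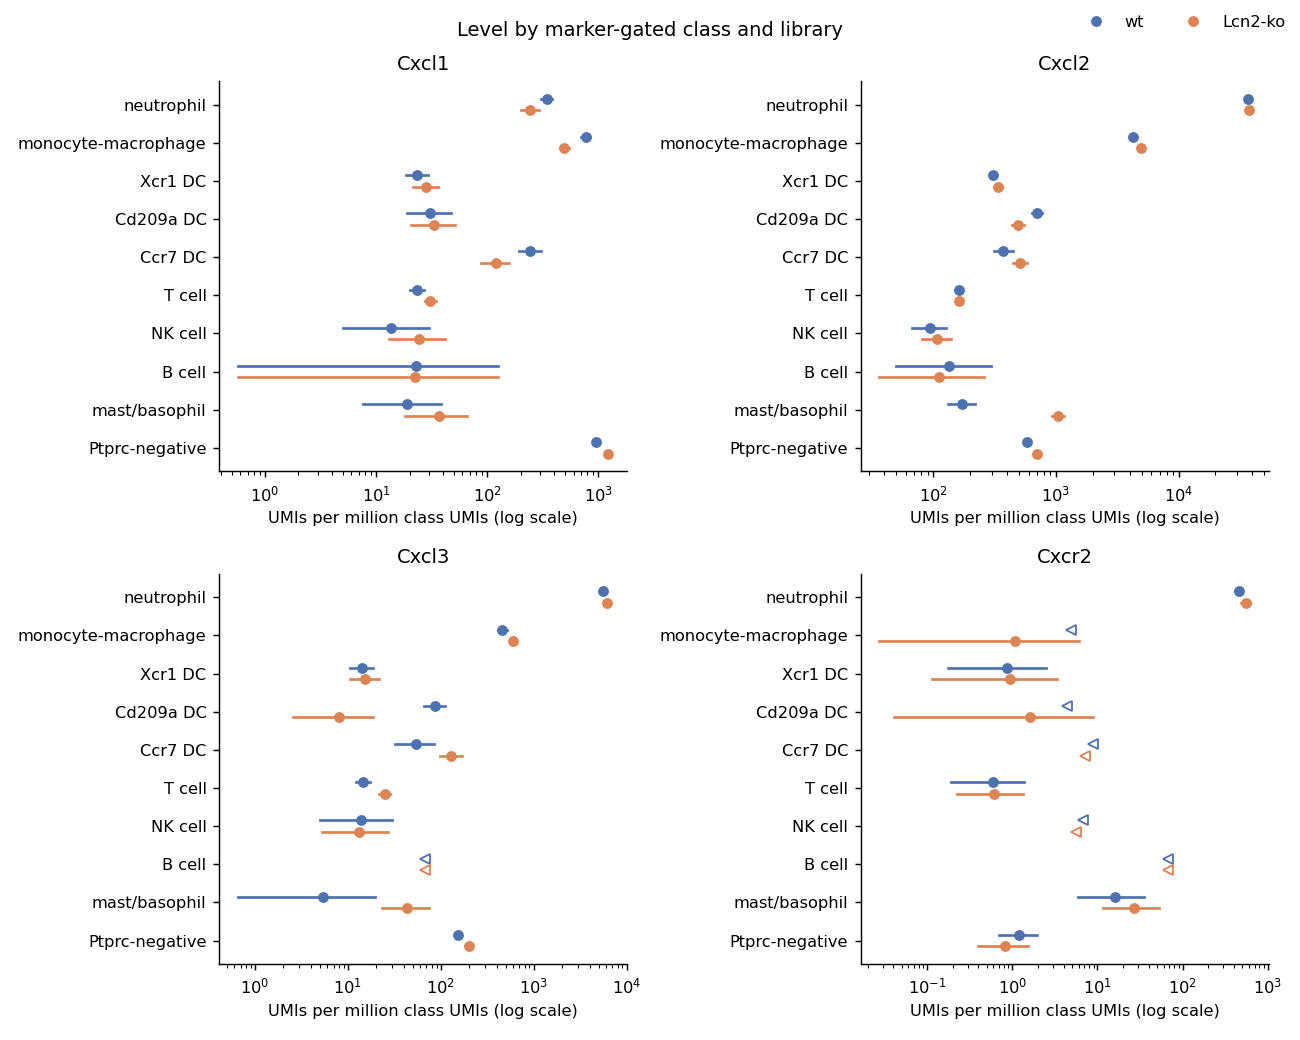
Level of each gene in 10 cell classes, in CPM on a log axis, with 1 point per library and 95% Poisson intervals that cover counting error only. Open triangles mark the level that a count of 0 allows. Cxcl2, Cxcl3 and Cxcr2 were highest in neutrophils and Cxcl1 was highest in Ptprc-negative cells in both libraries.

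The gated neutrophils were chosen by their marker list against the other lists. Sums of the neutrophil and monocyte-macrophage lists therefore describe the gate and are no independent check of it. All 11 neutrophil markers were detected, at a summed level of 23485 and 22882 CPM, with S100a8 the highest, and the median cell held 7 of them. The 14 monocyte-macrophage markers summed to 888 and 887 CPM, with a median of 1 per cell, and the 4 erythroid markers had 0 UMIs. There were 28 wt cells and 25 others at the gate's minimum of 3 markers.

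By level, monocyte-macrophages came next among the gated classes for Cxcl2 and Cxcl3. By UMIs held, the more numerous gated Ptprc-negative cells stood above the gated monocyte-macrophages for both genes, as the counts below show. Gated monocyte-macrophages, 123 in wt and 163 in the Lcn2-ko-labelled library, held Cxcl2 at 4275 and 4927 CPM (2657 and 4561 UMIs), so that wt neutrophils were 8.69-fold higher (8.35 to 9.04) and the other neutrophils 7.68-fold higher (7.43 to 7.93). Cxcl2 ranked 19 and 18 among all genes there. Cxcl3 stood at 460 and 600 CPM (286 and 555 UMIs), and neutrophils were 11.9-fold (10.6 to 13.5) and 10.3-fold (9.42 to 11.3) higher. Cxcl1 stood at 772 CPM in wt (705 to 845) and 494 in the other library (449 to 541), above the neutrophils by 2.25-fold (1.95 to 2.61) and 2.02-fold (1.65 to 2.48).

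In the larger monocyte-macrophage clusters, 747 and 829 cells, Cxcl2 was 5853 and 6153 CPM, Cxcl3 834 and 781, and Cxcl1 613 and 559. The order of neutrophils over monocyte-macrophages was thus unchanged for Cxcl2 and Cxcl3 in both groupings. Those clusters also held more of the neutrophil marker list, 2827 and 2132 CPM summed, against 1122 and 1241 in the gated cells. The part of that list in their chemokine levels was not tested. The cells left at the gate's minimum of 3 markers were 6 and 7.

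Within the class, Cxcl3 was higher in cells of monocyte type than in cells of macrophage type. Cells with no UMI of the complement genes C1qa, C1qb and C1qc and at least 1 of the monocyte genes Ly6c2 or Ccr2 (24 and 36 gated cells) held Cxcl3 at 1929 and 2250 CPM, against 248 and 385 in cells with at least 2 C1q UMIs (89 and 116). Single cells weighed heavily there, with 102 of the 156 wt UMIs and 109 of the 259 others in 1 cell each. In the clusters, where 125 and 191 such cells held 863 and 1824 Cxcl3 UMIs, the levels were 1684 and 2250 CPM against 660 and 493, which is 2.55-fold and 4.57-fold.

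Cxcl2 differed less between these cells. It was 6543 and 6569 CPM in the C1q-negative cells and 3876 and 4809 in the C1q-positive cells, by gate. Cxcl1 pointed the other way, with 618 and 278 CPM in the C1q-negative cells and 824 and 551 in the C1q-positive cells. By gate the interval of that difference took in 0 in wt (log2 -0.41; -0.87 to 0.01) and not in the Lcn2-ko-labelled library (log2 -0.99; -1.55 to -0.47), and over the clusters it left out 0 in both (-0.51; -0.71 to -0.31, and -0.80; -0.98 to -0.62).

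Cxcl1 was highest in the Ptprc-negative cells. They held 12549 Cxcl1 UMIs in wt, or 950 CPM (933 to 967), and 14799 in the Lcn2-ko-labelled library, or 1224 CPM (1204 to 1244). These levels were 1.23-fold (1.12 to 1.35) and 2.48-fold (2.26 to 2.73) above gated monocyte-macrophages, and 40.4-fold and 39.8-fold above T cells. Over the clusters the lead over monocyte-macrophages was 1.56-fold (1.51 to 1.62) and 2.17-fold (2.10 to 2.25).

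Ptprc-negative cells were also the deepest, with median depths of 8244 and 8587 UMIs. The median cell held 1 Cxcl1 UMI in wt and 3 in the other library, and the highest held 158 and 147. Thinned to 800 UMIs, 406 of 1417 wt cells (28.7%; 26.3 to 31.1) and 514 of 1267 others (40.6%; 37.9 to 43.3) had a Cxcl1 UMI, against 1.83% and 2.81% of T cells. Thinning left out 33 and 12 of them, and unthinned shares were 58.1% and 67.9%.

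Cxcl2 and Cxcl3 were present at lower levels in these cells. Cxcl2 was 587 and 704 CPM (7750 and 8512 UMIs) and Cxcl3 154 and 201 CPM (2041 and 2430 UMIs). Thinned, 26.5% and 28.7% had a Cxcl2 UMI and 8.05% and 9.87% a Cxcl3 UMI, above the T cell shares. Markers of monocyte-macrophages summed to 84.7 and 109 CPM there and those of endothelial cells to 11.6 and 33.7 CPM, and 52 and 29 cells stood at the minimum of 3 markers. Of the neutrophil list, which summed to 570 and 516 CPM, Mmp9 held 464 and 410.

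Cxcl1 also varied within the Ptprc-negative cells, and was highest in those rich in collagen transcripts. Cells that were not cycling and held at least 3 UMIs of Col1a1, Col1a2 and Col3a1 together had Cxcl1 at 1029 and 1408 CPM, in 679 and 617 cells. Cells with a UMI of the proliferation genes Mki67 or Top2a had 911 and 1123 CPM, in 715 and 622 cells, and the 56 and 40 remaining cells had 457 and 436 CPM. The last were shallow, with median depths of 1328 and 2717 UMIs against 6716 and 7110 in the collagen-high cells.

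Among single clusters Cxcl1 was highest in cluster 12 in wt, at 1175 CPM, a Ptprc-negative cluster led by the growth factor genes Inhba and Ereg. That cluster held it at 1285 CPM in the Lcn2-ko-labelled library, where cluster 1, led by collagen genes and the complement gene C3, held 1439. Cluster 22, of 44 cells led by Col1a2 and Igfbp7, held 521 and 2057. Cxcl1 was left out when the genes that formed these clusters were chosen. The levels are descriptions, and differences between single clusters were not tested.

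Set out as shares of molecules, the sources of the 3 chemokines differed. By gate, Ptprc-negative cells held 61.1% and 63.4% of all Cxcl1 UMIs in kept cells while making up 19.6% and 17.7% of cells, and over the clusters they held 78.2% and 82.3%. Neutrophils held 39.8% of Cxcl2 UMIs in wt and 25.6% in the Lcn2-ko-labelled library, and 37.8% and 26.2% of Cxcl3 UMIs, while making up 7.83% and 5.06% of cells. The ambiguous cells held 43.0% and 51.0% of Cxcl2. Shares of cells do not allow for depth, and Ptprc-negative cells were the deepest while neutrophils were shallow. Per UMI, Cxcl1 was 950 and 1224 CPM in Ptprc-negative cells against 517 and 602 over all kept cells. Cxcl2 was 37135 and 37830 CPM in neutrophils against 2096 and 1901 over all kept cells.

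Over the clusters, which leave few cells without a class, Cxcl2 was divided between neutrophils (41.9% and 27.0%) and monocyte-macrophages (41.3% and 52.2%). Cxcl3 was divided over 3 classes, neutrophils with 38.9% and 28.1%, monocyte-macrophages with 37.8% and 41.6% and Ptprc-negative cells with 21.1% and 27.3%. The neutrophil shares of Cxcl2 and Cxcl3 were lower in the Lcn2-ko-labelled library, where neutrophils were also fewer, at 366 against 579 gated cells. Over all kept cells Cxcl2 was 2096 and 1901 CPM, Cxcl3 327 and 303, Cxcl1 517 and 602 and Cxcr2 15.6 and 11.1. In such sums fewer cells of a class and less RNA per cell cannot be told apart.

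**Figure D2:**
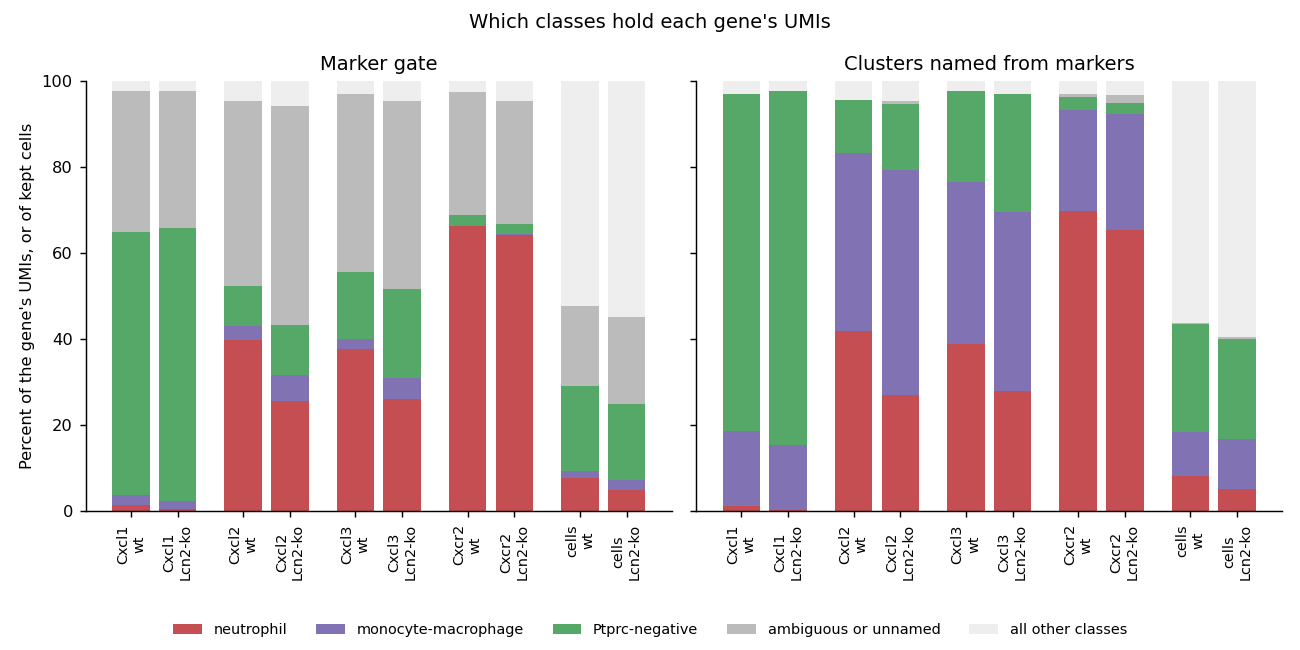
Percent of each gene's UMIs, and of kept cells, held by each group of cells in the 2 libraries, by marker gate and by named cluster. Ptprc-negative cells held most Cxcl1 UMIs and neutrophils most Cxcr2 UMIs, while Cxcl2 and Cxcl3 were divided between neutrophils and other cells.

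Cxcr2, the receptor, was highest in neutrophils. Neutrophils held 409 Cxcr2 UMIs in wt, or 459 CPM (415 to 505), and 276 in the Lcn2-ko-labelled library, or 554 CPM (490 to 623). The highest cells held 8 and 9 UMIs. T cells held 5 and 6 UMIs in all, or 0.591 and 0.606 CPM, and Ptprc-negative cells held 16 and 10, or 1.21 and 0.827 CPM. Gated monocyte-macrophages held 0 UMIs in wt and 1 in the other library, and NK cells and Ccr7 dendritic cells held 0 in both, which allows up to 6.84 and 5.63 CPM in NK cells. Gated mast cells or basophils came next after neutrophils, at 16.1 and 26.7 CPM, from 6 and 8 UMIs, which was 27.3-fold (6.94 to 113) and 44.0-fold (13.4 to 154) above T cells. Over the clusters that class fell to 7.36 and 3.45 CPM, from 3 UMIs and 1.

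Neutrophils held 66.3% and 64.2% of all Cxcr2 UMIs in kept cells by gate, in 2.25% and 1.28% of all UMIs, and 69.9% and 65.3% by cluster. The monocyte-macrophage clusters, unlike the gated cells, held 144 and 116 Cxcr2 UMIs, or 24.5 and 18.5 CPM. This was 44.5-fold (18.6 to 139) and 24.4-fold (12.0 to 57.8) above the T cell clusters. Among the named clusters the monocyte-macrophage clusters came next after neutrophils, below the small unnamed cluster described at the end. The monocyte-macrophage clusters took in 31 gated neutrophils, and the neutrophil marker list was higher there than in the gated monocyte-macrophages, as given above. The part of either in the Cxcr2 counts was not tested.

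A Cxcr2 UMI was found in 139 of 517 thinned wt neutrophils (26.9%; 23.1 to 30.9) and 89 of 302 others (29.5%; 24.4 to 35.0). The T cell background was 1 of 2733 cells and 0 of 3030, and without thinning the shares were 35.8% and 35.0% of neutrophils and 0.182% and 0.197% of T cells. A neutrophil without a UMI is not shown to lack the transcript at this depth.

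Nearly all neutrophils with the receptor transcript also held Cxcl2, as did nearly all without it. Of the 139 thinned wt neutrophils with a Cxcr2 UMI, 137 had a Cxcl2 UMI, and of the 378 without one, 371 did. In the Lcn2-ko-labelled library these were 88 of 89 and 208 of 213. A Cxcr2 UMI with no UMI of any of the 3 chemokines was seen in 1 of 517 wt neutrophils and 0 of 302 others.

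Cxcl3 was found at like shares in wt neutrophils with and without the receptor transcript, in 76 of the 139 with a Cxcr2 UMI (54.7%; 46.0 to 63.1) and 204 of the 378 without (54.0%; 48.8 to 59.1). In the Lcn2-ko-labelled library it was detected in 60 of 89 (67.4%; 56.7 to 77.0) and 115 of 213 (54.0%; 47.0 to 60.8), a difference that was not tested. The mean cell with a Cxcr2 UMI held 4.63 Cxcl3 UMIs in wt against 4.32 without one, and 7.69 against 4.08 in the Lcn2-ko-labelled library, where the medians were 3 and 1. Cxcl1 was detected in 11 of 139 and 29 of 378 wt cells and in 7 of 89 and 14 of 213 others. Across thinned neutrophils the counts of Cxcl2 and Cxcl3 had a Pearson correlation of 0.41 over 517 wt cells and 0.38 over 302 others, and those of Cxcl3 and Cxcr2 had 0.0082 and 0.16, in cells that share a library and a depth.

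Cxcr2 was unevenly spread among neutrophils. Cells with a UMI of Retnlg, Ifitm6, Hp or Wfdc21, genes of neutrophils recently out of the blood, and none of Inhba, P4ha1, Gpnmb or Atp6v0d2, genes of neutrophils that have stayed in tissue, are called early, and cells with the opposite pattern adapted. The 193 early wt cells held Cxcr2 at 674 CPM (580 to 780) and the 115 adapted at 373 (287 to 476), a log2 difference of 0.86 (0.44 to 1.29). In the Lcn2-ko-labelled library the 116 early cells held 820 CPM (681 to 978) and the 95 adapted 358 (260 to 480), a log2 difference of 1.20 (0.69 to 1.73). The early cells were thus higher in both libraries. The median early cell held 1359 and 1141 UMIs in all and the median adapted cell 1282 and 1202.

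Cxcl1 had the opposite order, and Cxcl2 and Cxcl3 differed by less than 1.5-fold. Cxcl1 was 258 CPM in early and 716 in adapted wt cells, a log2 difference of -1.47 (-1.92 to -1.04), and 167 and 252 CPM in the other library, where the interval took in 0 (-0.60; -1.42 to 0.21). Over the neutrophil cluster the interval left out 0 in both, at -1.77 (-2.34 to -1.22) in wt and -1.35 (-2.40 to -0.38) in the other library. Cxcl2 was 34408 CPM in early and 39742 in adapted wt cells, and 32560 and 40548 in the other library. Cxcl3 was 6018 and 4647 CPM in wt and 6705 and 5074 in the other library. Cells with neither set of genes (126 and 81) had the most Cxcl2, at 45194 and 47319 CPM.

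**Figure D3:**
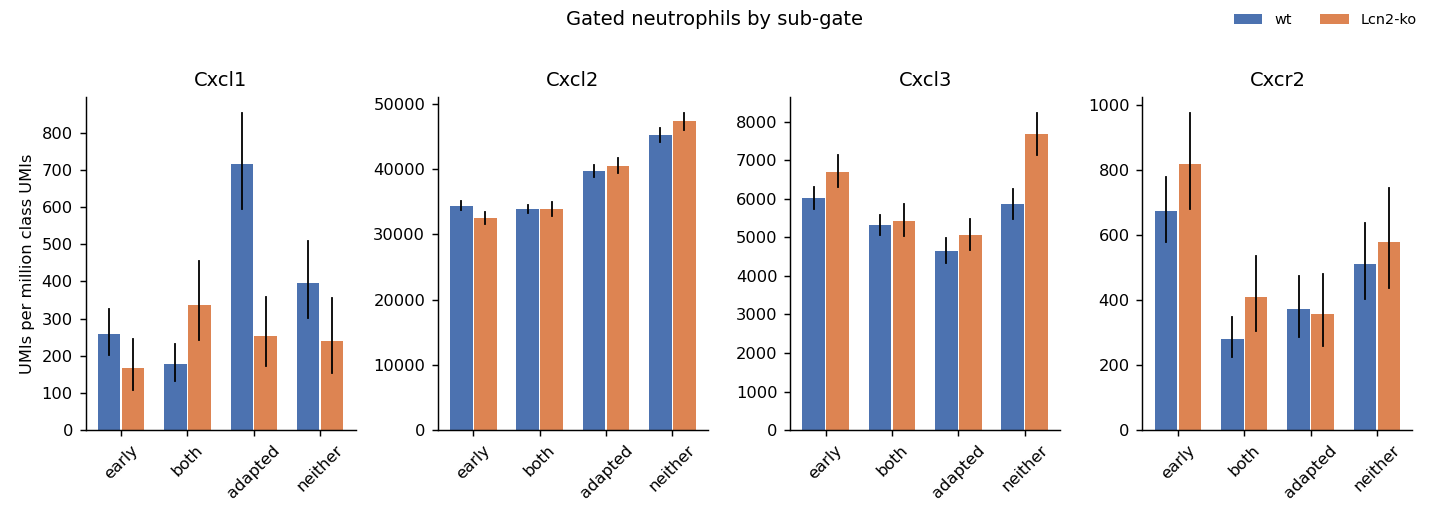
Level of each gene in gated neutrophils that held early genes, both sets, adapted genes or neither, in CPM from 0, with 95% Poisson intervals that cover counting error only. Cxcr2 was higher in early than in adapted cells in both libraries, and Cxcl1 in adapted wt cells stood at 716 CPM against 258 in early wt cells.

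Between the libraries, the level of none of the 4 genes in neutrophils moved past 1.5-fold. A gene was called where its ratio was at least 1.5-fold with a counting interval that left out equality, which 7.91% of 4600 genes did in neutrophils and 0 of the 4 genes. The log2 ratio of the Lcn2-ko-labelled library over wt was -0.49 for Cxcl1 (-0.80 to -0.18), 0.03 for Cxcl2 (0.00 to 0.05), 0.17 for Cxcl3 (0.10 to 0.23) and 0.27 for Cxcr2 (0.05 to 0.50). The median of all genes was 0.07. Scaling by TMM or by median-of-ratios size factors lowered all neutrophil ratios by 0.13 and 0.10, and Cxcl2 then stood at -0.099 and -0.076. By cluster the ratios were -0.55, 0.11, 0.31 and 0.30, also with 0 of 4 called beside 7.59% of genes.

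The level of Cxcl2 in neutrophils was thus within 1.5-fold in both libraries, while neutrophils made up fewer of the cells in the Lcn2-ko-labelled library and held a smaller share of its Cxcl2. Of the 4 genes in neutrophils, Cxcl1 moved most over the alternatives tried. It was -0.95 when ambiguous cells were put with their leading list, and -0.61 with at least 500 genes per cell, both called.

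In gated monocyte-macrophages Cxcl1 was called lower in the Lcn2-ko-labelled library, at log2 -0.65 (-0.83 to -0.46), beside 6.97% of 6152 genes called. Cxcl2 (0.20) and Cxcl3 (0.38; 0.17 to 0.59) were not called. The Cxcl1 call did not extend to the clusters, where the ratio was -0.13 (-0.20 to -0.06) beside 2.17% of genes called, nor to ambiguous cells put with their leading list, where it was -0.23. It was -0.61 without the top cell of each library. Cxcl3 was -0.096 over the clusters.

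In Ptprc-negative cells all 3 chemokines were higher in the Lcn2-ko-labelled library, and none passed 1.5-fold. The log2 ratios were 0.37 for Cxcl1 (0.33 to 0.40), 0.26 for Cxcl2 and 0.38 for Cxcl3, where 0.969% of 6708 genes were called and the median of all genes was -0.03. Of all genes there, 1.19% had a ratio at least as high as Cxcl1, 2.70% as Cxcl2 and 1.07% as Cxcl3. Over the clusters the ratios were 0.34, 0.24 and 0.31, with 1.07% of genes called. These cells do not descend from the marrow if they are tumour or host stroma, and which of those they are was not tested. Gated T cells, read here as background, had log2 ratios of 0.39 for Cxcl1, 0.016 for Cxcl2 and 0.76 for Cxcl3. In T cells 1.35% of genes had a ratio at least as high as Cxcl1.

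**Figure D4:**
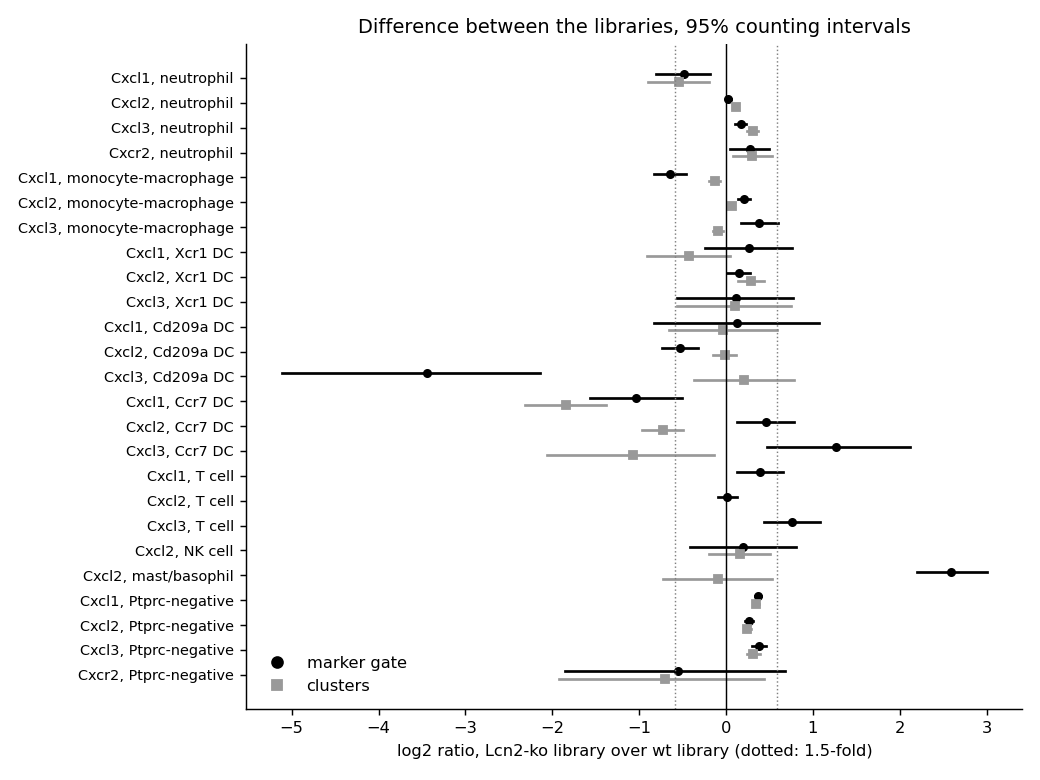
Log2 ratio of the Lcn2-ko-labelled library over wt for each gene and class with at least 20 gated UMIs over both libraries, by gate (circles) and, except for T cells, by cluster (squares), with 95% intervals that cover counting error only and dotted lines at 1.5-fold. Ratios in neutrophils, and those of the 3 chemokines in Ptprc-negative cells, lie inside the dotted lines in both groupings, while several smaller classes differ between gate and clusters.

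The remaining classes followed at lower levels, and many neighbours in the order did not differ beyond counting error. By gate, Ccr7 dendritic cells were the fourth class for Cxcl1, below neutrophils by 1.40-fold in wt (1.09 to 1.81) and 2.04-fold in the other library (1.46 to 2.90). Over the clusters the order turned in wt, where they stood at 415 CPM, 1.52-fold above neutrophils and beyond counting error, and not in the other library, where they were 1.61-fold below (1.13 to 2.32). Below them by gate, Cd209a and Xcr1 dendritic cells, mast cells or basophils, NK cells, B cells and T cells all lay between 13.7 and 36.6 CPM in both libraries, and no neighbouring pair differed beyond counting error. For Cxcl2 the lowest 3 gated classes in both libraries, T, B and NK cells, lay between 93.5 and 163 CPM, and neighbours among these 3 did not differ beyond counting error. B cells, 38 and 33, held 6 and 5 Cxcl2 UMIs, 1 and 1 of Cxcl1 and 0 of Cxcl3 and Cxcr2, a count that allows up to 67.9 and 67.2 CPM.

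In the small classes the ratios between libraries depended on few cells. Ccr7 dendritic cells (66 and 82) held Cxcl1 at 245 and 120 CPM, called lower at log2 -1.03 and at -1.84 over the clusters. Their Cxcl3 was called higher by gate at 1.26, from 18 and 54 UMIs of which single cells held 11 and 35, and lower over the clusters at -1.07. Their Cxcl2 was 0.46 by gate, which was not called, and -0.73 over the clusters, which was. The background in this class was 6.71% by gate and 7.32% by cluster.

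Cd209a dendritic cells held Cxcl3 at 86.5 and 7.97 CPM (59 and 5 UMIs), called at log2 -3.44 beside 6.97% of genes, with 0.21 over the clusters, where 6.73% of genes were called, and -1.21 without the top cell of each library. Mast cells or basophils held Cxcl2 at 172 and 1040 CPM (64 and 312 UMIs), called at 2.59 beside 7.91% of genes, with -0.093 over the clusters, where 6.11% of genes were called. Their Cxcl3 rested on 2 and 13 UMIs. Xcr1 dendritic cells held Cxcl2 at 308 and 340 CPM, and their Cxcl1 and Cxcl3 were near the T cell level.

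T cells themselves held Cxcl3 at 14.7 and 24.8 CPM, called at log2 0.76 (0.44 to 1.08) beside 0.984% of genes, with 35 of the UMIs in 1 cell of the Lcn2-ko-labelled library. Without the top cell of each library the ratio was 0.59. Over the T cell clusters, some of which were led by genes of other classes, it was 0.50 (0.19 to 0.82) and was not called, beside 0.984% of genes as well. Levels in T, NK and B cells are read here as background.

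Other genes of the pathway were taken from 8 lists with 49 genes. Of the other CXCR2 ligands, Cxcl5, Ppbp and Cxcl15 had 0 UMIs in wt neutrophils and 1, 1 and 3 in the others. Ptprc-negative cells held Cxcl15 at 8.17 and 5.62 CPM (108 and 68 UMIs). Mif, a cytokine that can bind CXCR2, was the only measured ligand of the list of 4, at 333 and 426 CPM in Ptprc-negative cells. A gene counted as measured with at least 20 CPM in either library.

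Among receptors, Cxcr1, the other receptor for such chemokines, stood at 41.5 and 48.2 CPM in neutrophils. Cxcr4 stood at 701 and 502 CPM, a log2 ratio of -0.48 (-0.70 to -0.27), and Ackr1, a scavenging receptor, and Cxcl12 had 0 UMIs there. With 2 of 4 measured, none was called (median -0.13), beside 7.91% of all genes. Receptors for other attractants were present too: C5ar1, the complement C5a receptor, at 1533 and 1363 CPM, Ptafr, the receptor of platelet-activating factor, at 1260 and 1262, and the formyl peptide receptors Fpr1 at 241 and 249 and Fpr2 at 362 and 367. Of these 5 genes all were measured and none called (median 0.00), beside the same 7.91%.

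Signalling genes downstream of the receptor were found in neutrophils at moderate levels. Rgs2, a brake on G protein signalling, stood at 512 and 494 CPM, the small GTPase gene Rac2 at 383 and 371 and the G protein gene Gnai2 at 353 and 319. Of the 9 genes 7 were measured and none called by gate (median -0.15), beside the 7.91% of all genes. Over the clusters 1 of 7 was called, Grk2, a kinase that desensitises such receptors, lower at log2 -0.60 (median -0.40), beside 7.59%.

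Inducers of the chemokines were abundant in neutrophils. Il1b stood at 17509 and 17230 CPM and Il1a at 2775 and 2804. Tnf was 1151 and 1696 CPM, a log2 ratio of 0.56 (0.43 to 0.69), which was not called. Over the clusters Tnf was called at 0.78, beside 7.59% of all genes. Of the 8 genes 7 were measured and none called by gate (median 0.06), beside 7.91% of all genes. Gated monocyte-macrophages held Il1b at 6588 and 6750 CPM and Tnf at 496 and 354, and Ptprc-negative cells held Il1b at 31.3 and 37.7.

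Genes that limit NF-kB or degrade chemokine mRNA were all measured in neutrophils, 5 of 5. None was called (median -0.10), beside 7.91% of all genes. Nfkbia, the NF-kB inhibitor, was 11838 and 11083 CPM, and Zfp36, whose product binds AU-rich mRNAs, was 9155 and 7430 (log2 -0.30; -0.36 to -0.25). In Ptprc-negative cells Nfkbia was 3262 and 3423 CPM and Zfp36 1733 and 1420 (log2 -0.29; -0.32 to -0.26).

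Of the growth factors, Csf2 stood at 71.5 and 61.7 CPM in Ptprc-negative cells, and Csf3, which drives neutrophil production, had 92 and 66 UMIs there and 0 in gated monocyte-macrophages. Csf3r, its receptor and a gate marker, was 1241 and 1218 CPM in neutrophils.

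Immediate-early and heat shock genes, which tissue digestion can raise, were measured alongside because the chemokine genes respond as fast. In neutrophils 11 of 11 were measured and none was called (median -0.07), beside 7.91% of all genes. In gated monocyte-macrophages Hspa1a (1805 and 569 CPM; log2 -1.67) and Hspa1b (1332 and 472; -1.50), heat shock protein genes, were called lower in the Lcn2-ko-labelled library, 2 of 11 (median -0.12) beside 6.97% of all genes, in the class where Cxcl1 was called lower as well. Over the clusters 4 of 11 were called, all lower (median -0.38), beside 2.17%. In Ptprc-negative cells, where Cxcl1 was higher, the calls were also Hspa1a and Hspa1b, lower at log2 -1.29 and -0.89 (median of 11 genes -0.10), beside 0.969%.

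The pair was called lower in most other gated classes too. In T cells Hspa1a was 892 and 258 CPM (log2 -1.79) and Hspa1b 886 and 260 (-1.77), the 2 of 11 called there beside 0.984% of all genes. The calls numbered 3 of 11 in Xcr1 dendritic cells (4.24% of all genes), 4 of 11 in Cd209a dendritic cells (6.97%), 4 of 11 in Ccr7 dendritic cells (6.71%), 2 of 11 in NK cells (4.87%) and 4 of 9 measured in B cells (7.02%). All of these were lower and included the pair. The classes with these calls include those in which Cxcl1 (Ccr7) and Cxcl3 (Cd209a) were called lower by gate. They also include those in which Cxcl3 was called higher by gate, Ccr7 dendritic cells (log2 1.26) and T cells (0.76). In gated mast cells or basophils 1 of 11 was called, the immediate-early gene Egr1, and it was higher (7.91%), while over their clusters 5 of 11 were called, all lower (6.11%). The part of digestion in the chemokine levels was not tested.

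Across classes, Cxcl2 and Cxcl3 shared some of their nearest genes, and Cxcl1 and Cxcr2 shared none with another of the 4. Likeness was the Pearson correlation of log2(CPM + 10) over 18 points, 9 classes in 2 libraries, among 3951 genes with at least 100 CPM in 1 point, and points of a class in both libraries are not independent. Nearest to Cxcl1 were C3 (0.94), the complement component, Apobec1 and Mmp14 (0.92 each), Dram1 (0.92) and Itpkc (0.91). Nearest to Cxcl2 were Sh2b2 (0.96), the haem oxygenase gene Hmox1 (0.96), Cd300lb (0.96), Zswim4 (0.96) and Atp6v1a (0.95).

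Nearest to Cxcl3 were Hmox1 (0.96), Cd300lb (0.95), the lipopolysaccharide receptor gene Tlr4 (0.95), Cxcl2 itself (0.95) and the tissue factor gene F3 (0.94). Nearest to Cxcr2 were Dach1 (0.99), Prok2 (0.97), Gm43661 (0.96), Steap4 and S100a8. Among the 4 genes, Cxcl1 had a correlation of 0.61 with Cxcl2, 0.71 with Cxcl3 and 0.19 with Cxcr2, and Cxcl2 had 0.78 with Cxcr2. Over the clusters most nearest genes were others: Cstdc4, Fpr1, Mirt2, 4933432I03Rik and Chil1 for Cxcr2, all 0.99 or above, and Cd14 (0.99), Ninj1, Hcar2, Cxcl3 and Cd300lb for Cxcl2. Apobec1, Dram1 and Itpkc stayed for Cxcl1 beside Cd63 and Vcam1, and Hmox1 and Cxcl2 for Cxcl3 beside Ninj1, Sod2 and Hp. Cxcl2 and Cxcr2 then had a correlation of 0.90.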

How the data were processed

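Whole-transcriptome libraries of 2 samples, 1 per genotype label, were used. The values deposited by the authors are raw UMI counts for each gene in each barcode. Cell Ranger and mm10 are named, with no version or role, per the submitters' processing notes. No barcode had fewer than 501 UMIs.

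Barcodes with under 200 genes (82 in wt and 46 in the other library) or over 20% mitochondrial UMIs (262 and 241) were left out. Scrublet (scanpy 1.11.5, expected rate 0.06) called 1 cell per library, so the highest 4% of scores were left out (319 and 312 cells, some failing another limit). A cell joined the class with the largest share of its markers detected, with at least 3 markers and at least 2 times the share of the next list. Clusters came from 2000 variable genes, chosen with the 4 genes and Lcn2 left out, among others. They used 30 components, 15 neighbours and the Leiden method at resolution 1 (igraph 0.11.9 and leidenalg 0.10.2). Limits set after seeing the data were Ptprc at 100 CPM for Ptprc-negative clusters and leaving 1 shallow cluster with markers of a second class unnamed.

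UMIs were summed by class and scaled to CPM. Intervals were exact Poisson (levels), Clopper-Pearson (shares) and conditional binomial (ratios), from scipy 1.17.1, and a count of 0 was read as allowing 3. Ratios across all genes were limited to those reaching 20 CPM in a library and 20 UMIs in total. Shares of cells were taken after thinning to 800 UMIs, leaving out shallower cells. Scripts were tested on simulated data. Alternatives covered filters, doublets, clusters, scaling (edgeR 4.0.16 TMM, DESeq2 1.42.0 size factors), thinning, means over cells and the top cell, and putting ambiguous cells with their leading list was added after seeing the data. Named genes were the 4 genes, the most abundant or most changed pathway genes, and for each of the 4 the 5 genes most alike across classes. The genes and lists were chosen with earlier results of these data known. Promoters came from RefSeq and positions from GENCODE, which held 31107 of 31253 gene IDs.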

Additional observations from a re-analysis of the deposited data

Results flagged for a closer look

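The log2 ratio of the Lcn2-ko-labelled library over wt had opposite signs for Cxcl1 in different classes. It was 0.37 in Ptprc-negative cells and -0.49 in gated neutrophils, which is 0.85 apart. It was -0.65 in gated monocyte-macrophages, which is 1.01 below the Ptprc-negative cells. Over the clusters the value in monocyte-macrophages was -0.13. With 1 library per label the difference between classes was not tested.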

How the results depend on the processing

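No paired analysis was possible because there was 1 library per label and no result came from a test. Ratios of the 4 genes in neutrophils, monocyte-macrophages and Ptprc-negative cells stayed within counting error of the value given in 110 of 130 alternatives. Clusters moved neutrophil Cxcl2 to 0.11 and Cxcl3 to 0.31, and monocyte-macrophage Cxcl1 to -0.13, Cxcl2 to 0.072 and Cxcl3 to -0.096. Putting ambiguous cells with their leading list moved neutrophil Cxcl1 to -0.95 and Cxcl2 to 0.090, and monocyte-macrophage Cxcl1 to -0.23 and Cxcl3 to 0.025. TMM and size factors moved neutrophil Cxcl2 to -0.099 and -0.076 and Cxcl3 to 0.043 and 0.066. Thinning moved Cxcl1 to -0.85 in neutrophils, -1.04 in monocyte-macrophages and 0.58 in Ptprc-negative cells, and monocyte-macrophage Cxcl3 to 0.65. Without the top cells the last was 0.70. The mean over cells moved Ptprc-negative Cxcl1 to 0.48 and Cxcl2 to 0.34. The cause was not tested.

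Shares of UMIs, counted together with the share of neutrophils with a Cxcr2 UMI, moved in 37 of 74 alternatives. They are given here as wt and then the Lcn2-ko-labelled library. Cxcl1 in Ptprc-negative cells was 78.2% and 82.3% by cluster, 59.4% and 61.9% with doublets kept and 67.1% and 70.4% with ambiguous cells assigned. Cxcl2 in neutrophils was 41.9% and 27.0% by cluster, 37.3% and 24.4% with doublets kept, 54.2% and 35.0% with ambiguous cells assigned, 38.3% and 24.1% with at least 4 markers and 35.1% and 20.8% with at least 500 genes. Cxcl3 in neutrophils was, in the same order, 38.9% and 28.1%, 35.3% and 24.5%, 52.8% and 34.1%, 36.3% and 24.4%, and 33.0% and 20.9%. A mitochondrial limit of 10% gave 24.9% for Cxcl2 and 25.4% for Cxcl3 in the Lcn2-ko-labelled library. Cxcr2 in neutrophils was 60.4% in wt with doublets kept, 61.4% in wt with at least 500 genes, and 82.2% and 76.0% with ambiguous cells assigned. The share of neutrophils with a Cxcr2 UMI was 35.8% and 35.0% without thinning, 16.8% and 18.9% when thinned to 500 UMIs, and 24.1% in the Lcn2-ko-labelled library with ambiguous cells assigned.

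Among ratios called by gate on at least 20 UMIs, those of Cxcl3 in Ccr7 dendritic cells (-1.07), Cxcl2 in mast cells or basophils (-0.093) and Cxcl3 in Cd209a dendritic cells (0.21, and 0.63 with ambiguous cells assigned) turned sign over the clusters. Ratios not called by gate turned too, among them Cxcl2 in Ccr7 dendritic cells (0.46 to -0.73), Cxcl3 in monocyte-macrophages (0.38 to -0.096) and Cxcl1 in Xcr1 dendritic cells (0.26 to -0.43). Genes past 1.5-fold numbered 364 in neutrophils, and 71 to 475 over 3 alternatives (at least 100 CPM, no filter on low levels, a limit of 2-fold). They numbered 429 in monocyte-macrophages (96 to 528) and 65 in Ptprc-negative cells (10 to 632).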

Other observations

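Some groups of cells that the classes leave out held chemokine and Cxcr2 UMIs. Cluster 21, of 54 shallow cells, was left unnamed because it carried basophil genes such as Mcpt8 and Il4 beside neutrophil granule genes such as Ngp and Camp. It held Cxcl2 at 2265 CPM in wt and at 9497 in the Lcn2-ko-labelled library. Cluster 21 had 18 wt cells and 36 of the other library in all, and Cxcr2 made up 0.0206% and 0.0141% of their UMIs. With so few shallow cells these shares rest on few UMIs. In the monocyte-macrophage clusters Cxcr2 made up 0.00245% and 0.00185%. Cells with too few markers for any class, 251 and 227, held Cxcl2 at 1902 and 2414 CPM and Cxcl3 at 395 and 488 CPM.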
